A study of Mus musculus with 14 samples.

Results

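The miR-15 and miR-16 family is a group of microRNAs (miRNAs) whose guide arms share the same seed, the stretch near the 5′ end that pairs with target mRNAs. Members were chosen by name, as every assay on the panels for miR-15a, miR-15b, miR-16, miR-195, miR-497 or miR-322 and for the passenger arms of the same hairpins, which are marked with a star. This gave 12 of the 389 named miRNAs, 6 guide arms and 6 passenger arms. Levels were measured by quantitative PCR in plasma of 8 mice with osteosarcoma (OS) and of 6 control mice, 1 sample per mouse. The mice with OS came from a genetically engineered mouse model (GEMM) in which Cre recombinase, driven by a collagen promoter active in osteoblasts, deletes 1 or both floxed copies of Trp53. The labels do not tell which mice with OS carried 1 floxed copy and which carried both, nor the age of each mouse. The controls were healthy wild type littermates, which by the methods of the study also carried Cre with both copies of Trp53 intact. Blood was drawn into EDTA by cardiac puncture, in the mice with OS after a tumour had formed.

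Each miRNA is made as a hairpin that is cut into a duplex. One strand, the guide arm, is loaded into Argonaute and silences mRNAs with a matching seed, and the other, the passenger arm, is mostly degraded. miR-15a and miR-16 are known for silencing BCL2 and cyclins of the G1 phase, and their human cluster is often deleted in chronic lymphocytic leukaemia. p53 is known to promote processing of miR-16 precursors in human cells. miR-16 is abundant in blood cells, red cells among them, so that its level in plasma depends on how many cells broke during sampling, and it has been used as a reference for scaling plasma measurements.

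The sequences below are those of the 6 guide arms from RefSeq (GRCm38.p6), shown because the shared seed defines the family and because the rest of each sequence sets the assays apart. All are given 5′ to 3′, with the seed (bases 2 to 8) in capitals.
mmu-miR-15a: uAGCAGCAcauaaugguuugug
mmu-miR-15b: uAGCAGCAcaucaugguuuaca
mmu-miR-16: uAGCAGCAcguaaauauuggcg
mmu-miR-195: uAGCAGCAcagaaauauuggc
mmu-miR-322: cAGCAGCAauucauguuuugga
mmu-miR-497: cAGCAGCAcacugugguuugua
The seed AGCAGCA is held by 10 of the 1679 mature sequences of that table. Mature miR-15a and miR-15b differed at 4 of 22 positions, miR-15a and miR-16 at 6, and miR-16 and miR-195 at 2 of the 21 that they share. Cross-reaction of the miR-16 and miR-195 assays was not tested.

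The passenger arms of the same hairpins have a seed each that no other mature sequence of the table holds. Those with an entry are shown because the arms of 1 hairpin are compared further on.
mmu-miR-15a*: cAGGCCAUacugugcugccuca
mmu-miR-15b*: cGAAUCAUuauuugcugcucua
mmu-miR-16-1*: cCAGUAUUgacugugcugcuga
mmu-miR-195*: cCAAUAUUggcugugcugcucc
mmu-miR-322*: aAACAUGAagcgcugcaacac
The twelfth assay, rno-miR-322*, carries the rat name of the miR-322 passenger arm.

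The family lies at 4 places in the genome. Mir15a and Mir16-1 lie 54 bases apart on the minus strand of chromosome 14 within Dleu2, a long noncoding RNA, with the miR-15a guide arm at chr14:61632075-61632096. Mir15b and Mir16-2 lie 66 bases apart on the plus strand of chromosome 3 within Smc4, which encodes a condensin subunit, with the miR-15b guide arm at chr3:69009775-69009796. Mir497 and Mir195a lie 241 bases apart on chromosome 11, and Mir322 lies on chromosome X within C430049B03Rik, a long noncoding RNA. The same miR-16 guide arm is cut from both Mir16-1 (chr14:61631936-61631957) and Mir16-2 (chr3:69009918-69009939), so that its assay cannot tell them apart, whereas miR-16-1* comes from Mir16-1 alone. Both hairpins are shown for this reason, with the guide arm and then the passenger arm in capitals.
Mir16-1: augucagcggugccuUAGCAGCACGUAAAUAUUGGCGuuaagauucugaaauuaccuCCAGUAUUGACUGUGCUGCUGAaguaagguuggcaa
Mir16-2: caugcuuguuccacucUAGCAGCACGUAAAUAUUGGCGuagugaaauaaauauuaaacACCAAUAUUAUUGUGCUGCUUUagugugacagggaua

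The quantification cycle (Cq) is the PCR cycle at which a well's signal passes a set level, and it falls by 1 for each doubling of the template. Levels are given here as the mean Cq of all retained miRNAs of a mouse minus the Cq of the assay, in log2 units, so that a higher value stands for more of the miRNA. A Cq above 37 counted as missing. A Cq carries no count of molecules, and the errors given here rest on the spread among mice. Over all 388 miRNAs tested with limma, 25 were lower and 24 higher in OS at an adjusted p of 0.05, and the median difference was -0.00266. Without scaling between mice, this median shifted by -0.45. The level of a plasma miRNA is that of the whole sample, in which fewer cells of a type giving off RNA and less RNA from each cell cannot be told apart.

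Of the 12 assays, 10 were measured in all 14 mice. miR-195 was missing in OS replicate 18 only. miR-195*, the passenger arm of miR-195, was measured in 0 of 8 mice with OS and in 1 of 6 controls, at a Cq of 36.83, and was left out of the comparison (Fisher's exact test, two-sided, p = 0.429). By mean level over the mice, miR-16 ranked 6 among the 388 miRNAs, miR-15a 27, miR-15b 34, miR-497 63 and miR-322 71. The 5 other passenger arm assays ranked between 167 (miR-15a*) and 215 (miR-16-1*), and miR-195 ranked 323. Assays can differ in efficiency, so these ranks order the assays' Cq and only roughly the molecules.

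Lower levels in plasma of mice with OS were found for mmu-miR-15a, mmu-miR-15b* and mmu-miR-16-1*, a guide arm and the passenger arms of 2 other hairpins. Of the 11 assays tested, 3 were lower, against 6.44% of all miRNAs, and 0 were higher, against 6.19% of all. The 5 assays of the family that had been put forward with earlier results of these data in view hold all 3 of these, so the count is not independent of that choice. The median difference of the 11 was -0.75, and 8 of them lay below 0, compared with 195 of all 388.

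**Figure D1:**
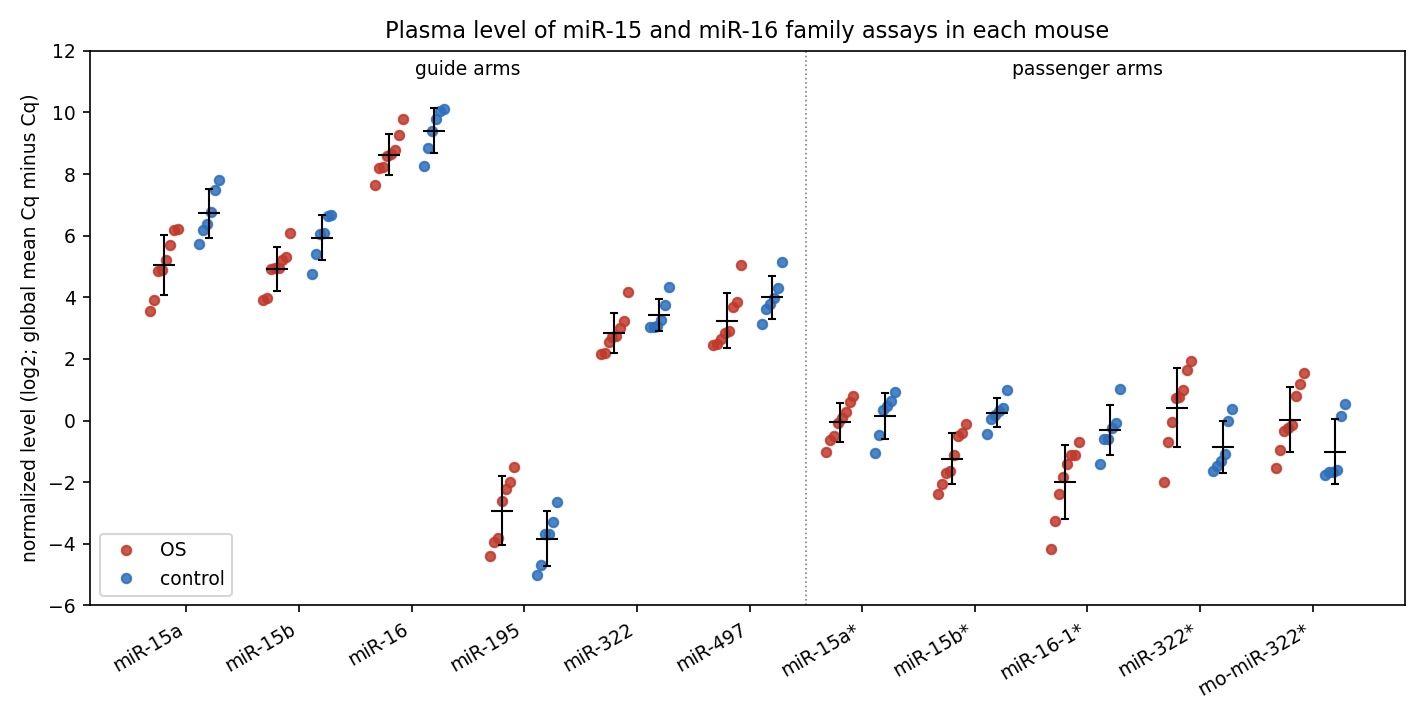
Normalized level (log2, global mean Cq minus Cq) of the 11 family assays tested, 1 point per mouse, OS left of control, with black bars for the mean and SD; the guide arms stand left of the dotted line and the passenger arms right of it. The points of OS lie lowest relative to control for miR-15a, miR-15b* and miR-16-1*, and highest for miR-322*.

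miR-15a, a guide arm from chromosome 14, ranged from 3.56 to 6.20 in the mice with OS with a median of 5.04, and from 5.72 to 7.79 in controls with a median of 6.58. The lowest values were those of OS replicates 12 and 10, the highest that of control replicate 3, and 6 of 8 mice with OS lay below every control. The difference of -1.66 ± 0.47 (SE), a 3.16-fold lower level, passed (limma, adjusted p = 0.0295). It was no longer called without control replicate 3, 13 or 14 (-1.44, -1.52 and -1.65) or OS replicate 10, 11 or 12 (-1.49, -1.63 and -1.45), with adjusted p from 0.0186 to 0.0764 over all mice left out in turn.

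miR-16-1*, the passenger arm of Mir16-1, is cut from the same transcript as miR-15a. It ranged from -4.16 to -0.70 in OS with a median of -1.63, and from -1.42 to 1.03 in controls with a median of -0.42. OS replicate 10 was lowest and control replicate 3 highest, with 5 of 8 mice with OS below every control and 5 of 6 controls above every mouse with OS. Its level was 3.21-fold lower in OS (difference -1.68 ± 0.53 (SE), limma, adjusted p = 0.0432). This call was the least stable of the 3, since it was made in 4 of the 14 fits that left out 1 mouse each, those without OS replicate 15, 17 or 18 (-1.87, -1.80 and -1.82) and without control replicate 4 (-1.90). In the other 10 the difference lay between -1.77 and -1.37.

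miR-15b*, the passenger arm of Mir15b on chromosome 3, ranged from -2.37 to -0.11 in OS with a median of -1.38, and from -0.43 to 0.99 in controls with a median of 0.25. OS replicate 11 was lowest and control replicate 13 highest, and again 6 of 8 mice with OS lay below every control. The level was 2.80-fold lower in OS (difference -1.49 ± 0.40 (SE), limma, adjusted p = 0.0249). It passed in 11 of the 14 fits without 1 mouse, and not without control replicate 3, 13 or 14 (-1.47, -1.35 and -1.46).

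The guide arm of the same hairpin, mmu-miR-15b, ranged from 3.93 to 6.10 in OS with a median of 4.96, and from 4.75 to 6.66 in controls with a median of 6.07. The groups overlapped more, with 2 of 8 mice with OS below every control. The difference was -1.02 ± 0.40 (SE) and did not pass after adjustment (limma, adjusted p = 0.106). Without control replicate 1 it was -1.25, and without OS replicate 17 it was -1.18, and both of these passed (adjusted p = 0.0450 and 0.0466).

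mmu-miR-16, the most abundant member by Cq and a product of both clusters, ranged from 7.64 to 9.77 in OS with a median of 8.61, and from 8.26 to 10.10 in controls with a median of 9.59. The groups overlapped, with 3 of 8 mice with OS below every control and 3 of 6 controls above every mouse with OS. The difference was -0.77 ± 0.39 (SE) with a 95% interval from -1.60 to 0.05, and did not pass (limma, adjusted p = 0.193). None of the 14 fits without 1 mouse called it (adjusted p = 0.0905 to 0.336).

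miR-322 and miR-497, the family's guide arms from chromosomes X and 11, had median levels of 2.74 and 2.88 in OS, against 3.17 and 3.88 in controls. For miR-322, 6 of 8 mice with OS lay below every control, and OS replicate 17, at 4.17, stood well above the rest of its group. The differences were -0.56 ± 0.36 and -0.75 ± 0.44 (SE), neither of which passed (limma, adjusted p = 0.293 and 0.242). miR-195, from the same cluster as miR-497, went the other way, from -4.39 to -1.50 with a median of -2.60 in OS, and from -5.02 to -2.63 with a median of -3.69 in controls. Its difference of 0.91 ± 0.52 (SE, 7 mice with OS and 6 controls) did not pass either (limma, adjusted p = 0.242).

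The remaining passenger arms were not lower in OS by the test. miR-15a*, from the same hairpin as miR-15a, had a median of 0.01 in OS and 0.41 in controls with overlapping groups (difference -0.21 ± 0.39 (SE), limma, adjusted p = 0.758). miR-322* ranged from -2.01 to 1.92 in OS with a median of 0.74, and from -1.64 to 0.39 in controls with a median of -1.20, with 5 of 8 mice with OS above every control. OS replicate 15, at -2.01, was the lowest of all mice. The difference was 1.27 ± 0.55 (SE) with all mice (limma, adjusted p = 0.131), and 1.62 without OS replicate 15, which passed (adjusted p = 0.0259). The rat-named assay gave 1.04 ± 0.53 (SE, adjusted p = 0.193), and read -0.28 ± 0.46 (SD, n = 14) relative to the mouse-named assay of miR-322* in the same mice.

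Assays were then compared within each mouse, as the Cq of one minus the Cq of the other, which needs no scaling between mice. Of 15 such differences, 10 are the pairs among miR-15a, miR-15b, miR-15b*, miR-16 and miR-16-1*, and 5 were chosen after seeing the data. The assays of those 10 pairs had been put forward with earlier results of these data in view, so neither set of pairs is independent of the data. The miR-15a guide arm was lower relative to its passenger arm in OS, and so was miR-322 relative to miR-322*. For miR-15b and miR-16 the change between arms did not pass. miR-15a was also lower in OS relative to the other guide arms miR-16 and miR-15b, for miR-15b only just within the threshold.

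**Figure D2:**
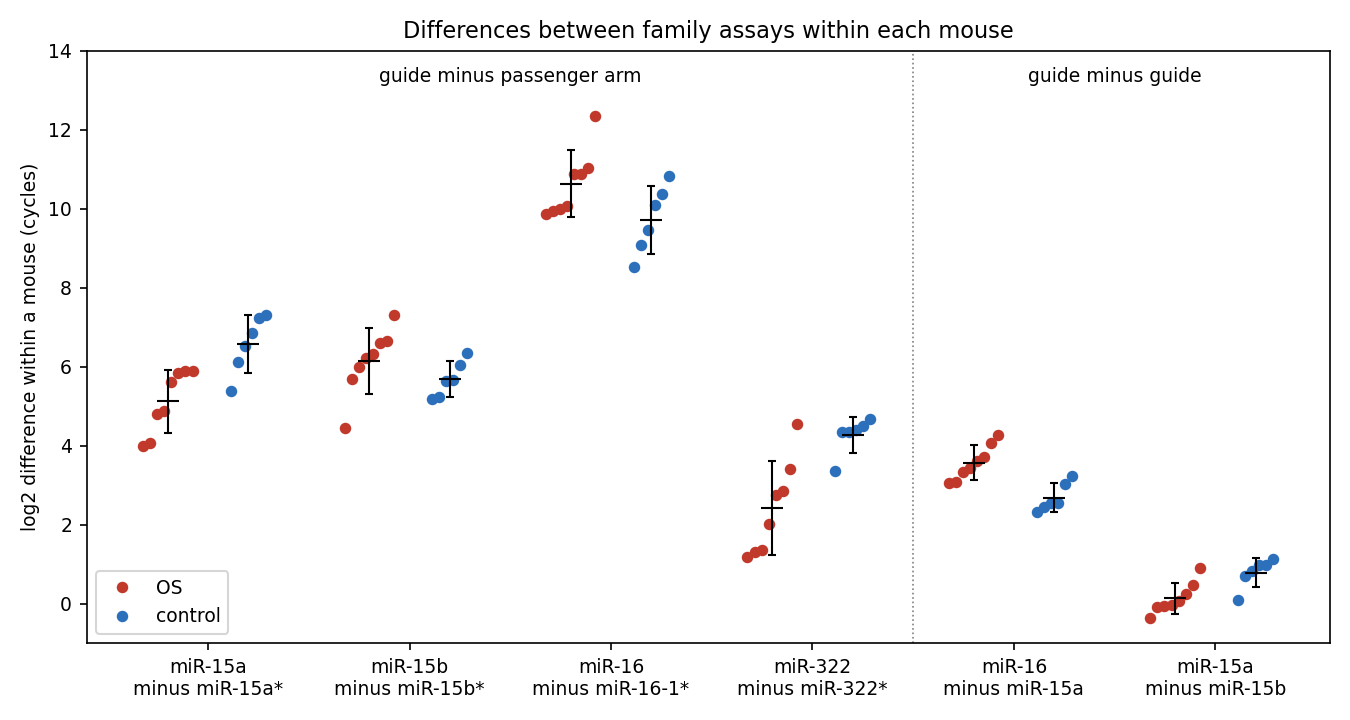
Log2 difference between a pair of assays within each mouse, OS left of control, with black bars for the mean and SD; left of the dotted line are guide minus passenger arms, right of it guide arms from different hairpins. The OS points lie lower for miR-15a minus miR-15a* and for miR-322 minus miR-322*, and higher for miR-16 minus miR-15a.

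miR-15a exceeded miR-15a* by 3.98 to 5.89 in OS, with a median of 5.25, and by 5.39 to 7.31 in controls, with a median of 6.69. Only control replicate 1 lay within the range of OS, the other 5 of 6 controls being above every mouse with OS. The difference between groups was -1.45 (95% interval -2.36 to -0.54, exact permutation test, two-sided, p = 0.00533, adjusted over the 15 p = 0.0366), one of those chosen after seeing the data.

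miR-322 exceeded miR-322* by 1.19 to 4.56 in OS, with a median of 2.39, and by 3.36 to 4.68 in controls, with a median of 4.37. In 6 of 8 mice with OS the excess was smaller than in every control, the others being OS replicates 15 and 17, at 4.56 and 3.42. The groups differed by -1.83 (95% interval -2.96 to -0.71, exact permutation p = 0.00733, adjusted p = 0.0366), again in a pair chosen after seeing the data.

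miR-15b exceeded miR-15b* by 4.46 to 7.30 in OS (median 6.27) and by 5.18 to 6.34 in controls (median 5.65). OS replicate 10 was lowest of all mice. The difference between groups was 0.47 (95% interval -0.36 to 1.30, exact permutation p = 0.244), and 0.71 without OS replicate 10 (exact permutation p = 0.0280, not adjusted).

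miR-16 exceeded miR-16-1* by 9.87 to 12.35 in OS (median 10.48) and by 8.52 to 10.83 in controls (median 9.78), with OS replicate 10 highest. The difference of 0.91 (95% interval -0.10 to 1.91) did not pass (exact permutation p = 0.0679, adjusted p = 0.127). Without control replicate 4 it was 1.13 (exact permutation p = 0.0280, not adjusted). For both pairs the upper bound of the interval lay above 1 cycle.

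Between guide arms, miR-16 minus miR-15a was 3.05 to 4.28 in OS with a median of 3.52, and 2.31 to 3.23 in controls with a median of 2.55. In 6 of 8 mice with OS it was above every control, OS replicates 15 and 18 being the others. The difference was 0.88 (95% interval 0.40 to 1.37, exact permutation p = 0.00266, adjusted p = 0.0366), and stayed between 0.78 and 0.99 with any 1 mouse left out. miR-15a was also lower relative to miR-15b in OS, with a difference of -0.64 (95% interval -1.09 to -0.19, exact permutation p = 0.0133, adjusted p = 0.04995), from -0.78 to -0.57 with any 1 mouse left out. This adjusted p lies just under 0.05 and takes in all 15 pairs. Among these, miR-15a minus miR-15a* and miR-322 minus miR-322*, chosen after seeing the data, had smaller p-values (exact permutation p = 0.00533 and 0.00733). The pass for miR-15a minus miR-15b depends on counting those pairs.

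Relative to miR-16-1*, from the same transcript, miR-15a showed no difference that passed (7.06 ± 0.56 in OS and 7.04 ± 0.61 in controls, SD; difference 0.02, 95% interval -0.66 to 0.71, exact permutation p = 0.938). miR-16 relative to miR-15b was 3.30 to 4.22 in OS and 3.32 to 3.73 in controls, with the smallest SD of the 15 pairs in each group (0.27 in OS and 0.14 in controls), and differed by 0.24 (exact permutation p = 0.0613, adjusted p = 0.127). miR-16 relative to miR-15b* was higher in OS by 0.71 before adjustment only (exact permutation p = 0.0300, adjusted p = 0.0899).

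miR-451 is packed in red blood cells and miR-23a is little affected by them. Cq(miR-23a) minus Cq(miR-451) is therefore used as a marker of haemolysis, with a higher value read as more of it. The marker was 4.19 ± 1.94 in OS (1.05 to 6.85) and 5.77 ± 1.43 in controls (4.11 to 7.21; SD, n = 8 and 6), a difference of -1.58 (exact permutation p = 0.116). OS replicates 10, 12 and 11 had the lowest markers, 1.05, 2.59 and 2.97, and control replicates 13 and 3 the highest, 7.21 and 7.03. OS replicates 12 and 10 were also the lowest of all mice for miR-15a, and control replicates 3 and 13 the highest.

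Family members differed in how they followed the marker. In the limma fit with group and marker, the slope was positive and passed for 2 of 11 assays, miR-15a at 0.43 and miR-16-1* at 0.47 per cycle of the marker (adjusted p = 0.0215 and 0.0246), against 4.38% of all miRNAs with a positive slope. It was negative and passed for 2 assays of 1 miRNA, miR-322* at -0.45 and rno-miR-322* at -0.49 (adjusted p = 0.0460 and 0.0208), against 5.93% of all. miR-23a, itself a part of the marker, had a slope of -0.28 (adjusted p = 0.0496). The slopes of miR-15b, 0.28, and miR-16, 0.26, did not pass (adjusted p = 0.0981 and 0.117), nor did that of miR-15b*, 0.13 (adjusted p = 0.520). miR-322 and miR-497 had slopes of -0.11 and -0.14 (adjusted p = 0.545 and 0.533).

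**Figure D3:**
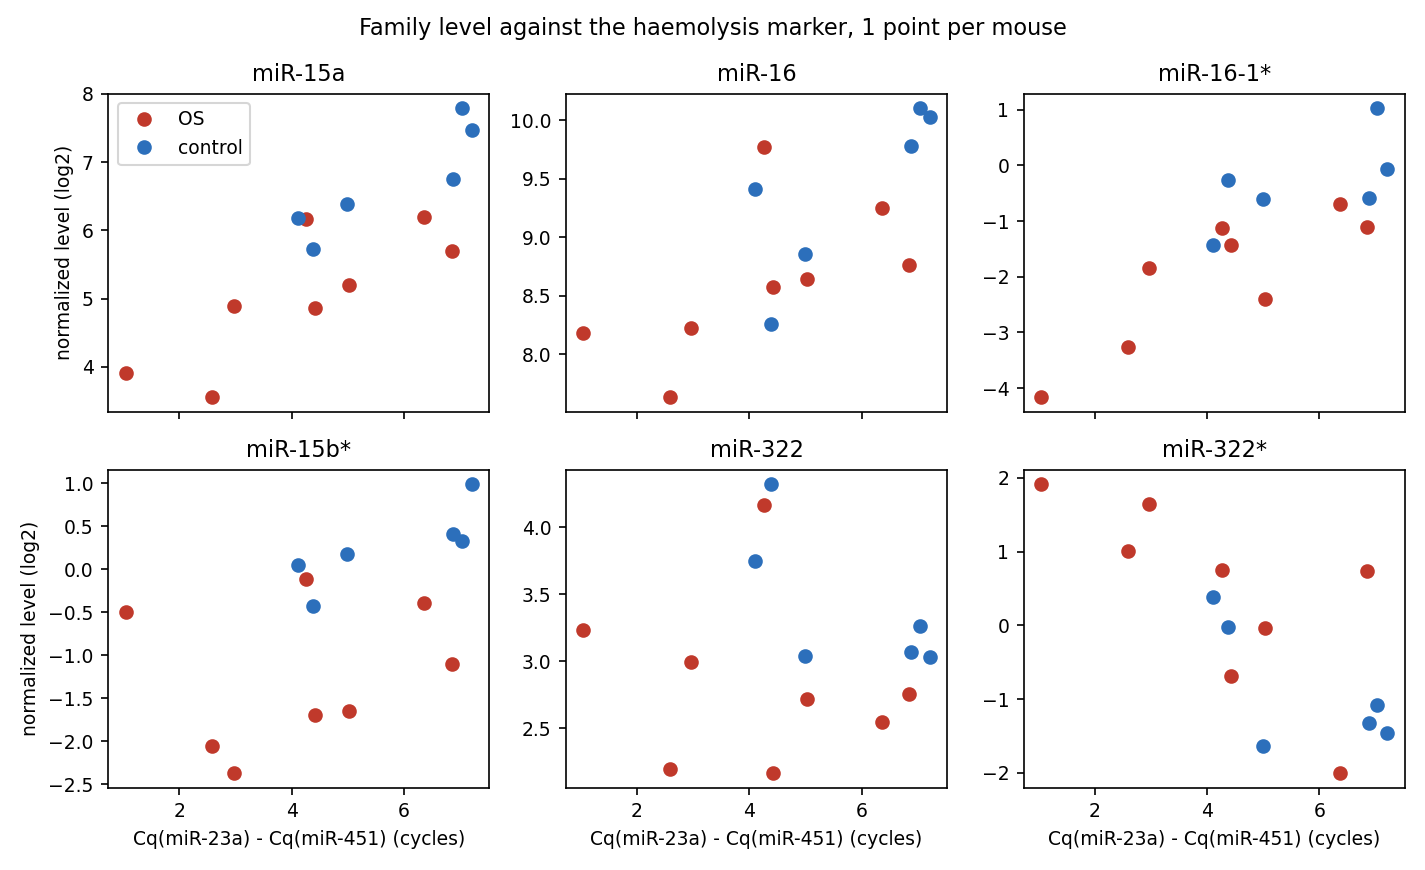
Normalized level (log2) of 6 family assays against the marker of haemolysis, Cq(miR-23a) minus Cq(miR-451) in cycles, 1 point per mouse, red for OS and blue for control. miR-15a, miR-16 and miR-16-1* lie higher where the marker is higher, miR-322* lower, and miR-322 shows no such order over all mice.

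Over the 14 mice, Pearson's r with the marker was 0.834 for miR-15a (rho 0.767, permutation test, p adjusted over the 11 assays = 0.00136). It was 0.751 without the mice farthest from the median marker, OS replicate 10 and control replicate 13, and held within groups, 0.798 in OS and 0.891 in controls. For miR-16-1* r was 0.822 (rho 0.776, adjusted p = 0.00136 by permutation), 0.691 without those mice, 0.839 within OS and 0.645 within controls. miR-16 and miR-15b, with r of 0.730 and 0.746 (rho 0.758 and 0.670, adjusted permutation p = 0.00572 and 0.00528), kept positive values within both groups, from 0.585 to 0.813.

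For miR-322* r was -0.764 (rho -0.771, adjusted permutation p = 0.00467) and for its rat-named assay -0.851, both negative within each group. miR-195 had r of -0.675 over 13 mice (rho -0.544, adjusted permutation p = 0.0179), but this was -0.883 within OS and -0.01 within controls, so the relation was not seen in the controls. miR-15b* had r of 0.520 (rho 0.618, adjusted permutation p = 0.0677), which was 0.192 within OS and 0.802 within controls. For miR-15a* r was 0.559 (rho 0.657, adjusted permutation p = 0.0521). miR-322 and miR-497 had r of -0.07 and -0.05. Within groups, miR-322 had r of -0.161 in OS and -0.712 in controls (exact permutation p = 0.712 and 0.113, not adjusted). miR-497 had -0.369 in OS and -0.146 in controls.

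With the marker as a covariate, 0 of the 11 assays passed, against 4.38% of all miRNAs. The difference for miR-15a was then -0.99 ± 0.36 (SE, adjusted p = 0.164), that for miR-16-1* -0.94 ± 0.41 (adjusted p = 0.279), and that for miR-15b* -1.28 ± 0.42 (adjusted p = 0.113; limma). Unadjusted p-values were 0.0141, 0.0382 and 0.00787, and 3 of the 95% intervals excluded 0. The difference for miR-15b* thus moved least of the 3.

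**Figure D4:**
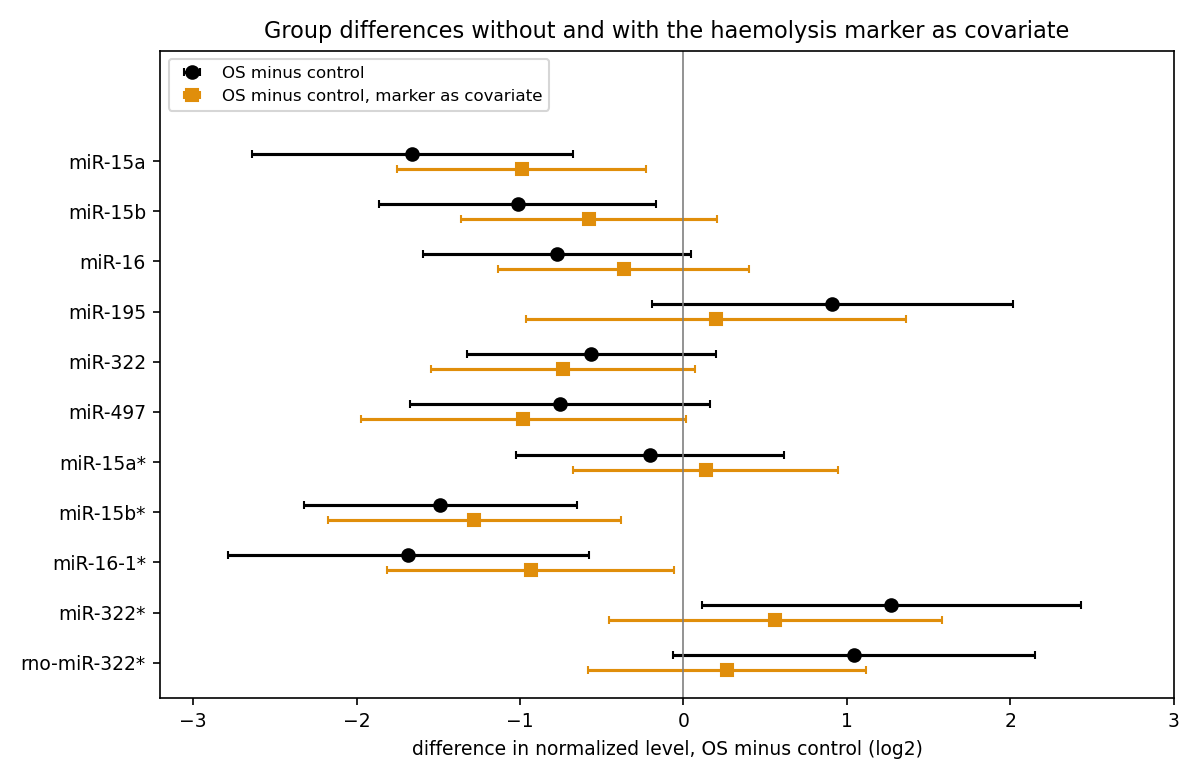
OS minus control difference in normalized level (log2) of each family assay with its 95% interval, without the marker (black circles) and with the marker as a covariate (orange squares). miR-15a and miR-16-1* move toward 0 with the covariate, to -0.99 and -0.94, while miR-15b* stays at -1.28.

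Leaving out the mice with a marker below 3 or above 7, a choice made after seeing the data, kept 5 mice with OS and 4 controls. The differences were then -0.64 for miR-15a, -0.63 for miR-16-1* and -1.04 for miR-15b*, with none called (limma, adjusted p = 0.564, 0.607 and 0.327), against 0.773% of all miRNAs. With the marker in the model, the within-mouse differences miR-16 minus miR-15a, miR-15a minus miR-15a* and miR-322 minus miR-322* kept their sign. They were then 0.62, -1.12 and -1.30 (permutation of residuals, p = 0.00592, 0.0213 and 0.0156, not adjusted). These within-mouse differences also followed the marker, with r of -0.748, 0.607 and 0.700 over the 14 mice, and miR-15a minus miR-15b had r of 0.737. Several within-mouse differences that had not passed turned sign with the marker in the model, as listed at the end.

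Set against miR-451 itself within each mouse, miR-15a was at -6.13 ± 0.84 in OS and -5.90 ± 0.45 in controls, and miR-16-1* at -13.2 ± 0.65 in OS and -12.9 ± 0.77 in controls (SD). The differences between groups were -0.23 (95% interval -1.05 to 0.60) and -0.25 (-1.08 to 0.58), and miR-15b* differed by -0.06 (-1.62 to 1.51). None of the 11 passed after adjustment (exact permutation test), miR-15a* being nearest with miR-195 and miR-322* (1.23, 2.57 and 2.70, adjusted p = 0.149 each).

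Most assays listed for blood cells did not pass between groups, and the part of those that did in the family's differences was not tested beyond the marker. Of 9 assays listed for red blood cells, 2 were lower in OS and 0 higher, against 6.44% and 6.19% of all miRNAs, with a median difference of -0.44. The lower ones were miR-144 (-2.38, adjusted p = 0.0131), which is co-transcribed with miR-451, and miR-106b (-1.42, adjusted p = 0.0443; limma). miR-451 had a difference of -1.43 and did not pass (adjusted p = 0.132), and miR-486 and miR-486*, also listed for red cells, had differences of 0.05 and 0.04 (adjusted p = 0.955 and 0.962). The summed level of the red cell list ran from 9.26 to 12.9 in OS (median 11.9) and from 11.9 to 14.0 in controls (median 12.9). Levels were summed before taking log2, so the most abundant assay weighs most. miR-451 alone reached 12.8 in OS and 13.7 in controls. Among 11 white cell assays, 2 were lower in OS and 0 higher, against the same 6.44% and 6.19% of all, with a median difference of -0.49. The lower ones were miR-142-3p (-3.57, adjusted p = 0.00326) and miR-146b (-1.29, adjusted p = 0.0407). The rat-named assay rno-miR-146b did not pass (-0.98, adjusted p = 0.106). miR-342-3p, miR-146a and miR-150 had differences of 0.97, 0.08 and 0.02 (limma, adjusted p = 0.146, 0.903 and 0.980). The summed level of the white cell list was 7.80 to 8.47 in OS and 8.37 to 9.60 in controls. Of 5 platelet assays none passed, with summed levels of 7.01 to 8.08 in OS and 7.31 to 8.33 in controls. All white cell and platelet assays and 8 of the 9 for red cells were measured in every mouse. In the limma fit with the marker, positive slopes passed for 3 of 9 red cell assays, against 4.38% of all. Among these is miR-451, itself a part of the marker, so that its pass is built in and is no independent result. Positive slopes passed for 2 of 11 white cell assays, miR-142-3p at 0.58 and miR-142-5p at 0.43 (adjusted p = 0.0246 and 0.0215). Negative slopes passed for 1 white cell and 1 platelet assay, against 5.93%. miR-486 and miR-486* had slopes of 0.08 and 0.03 (adjusted p = 0.653 and 0.850). Whether the marker follows red cells alone was not tested.

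Among 16 assays for miRNAs known to be induced or processed with p53, 3 were lower in OS and 0 higher (limma), against 6.44% and 6.19% of all miRNAs, with a median difference of -0.77. They were miR-107 (-1.25, adjusted p = 0.0443), miR-141 (-2.23, adjusted p = 0.0261) and miR-203 (-1.73, adjusted p = 0.0295). miR-203 was measured in 5 mice with OS and 6 controls. Of the 16 differences, 15 lay below 0, against 195 of all 388. The mouse- and rat-named assays of miR-143, miR-215 and miR-200c count separately here, so the 16 assays stand for fewer miRNAs. miR-34a, the best known p53 target among miRNAs, had a difference of -0.03 (adjusted p = 0.980). The other miR-34 assays, miR-34c, miR-34b-5p and miR-34b-3p, had differences of -1.68, -1.04 and -0.62 (limma, adjusted p = 0.0504, 0.401 and 0.447).

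The levels of the members were related to each other in blocks. miR-15a, miR-15b and miR-16 correlated at 0.912 to 0.960 over the 14 mice, and miR-322 with miR-497 at 0.820. miR-16 correlated with miR-322 at 0.303 over all mice, but at 0.590 within OS and -0.690 within controls. With miR-497 it correlated at 0.265, which was 0.464 within OS and -0.649 within controls. With miR-195 it correlated at -0.491 over 13 mice. miR-195 and miR-497, which share a cluster, correlated at 0.10. The miR-322 arms, of 1 hairpin, correlated at 0.167. Among 275 other miRNAs measured in every mouse, those most like miR-16 were miR-15b (r = 0.960), miR-106b (0.926) and let-7i (0.925), with miR-15a next. Those most like miR-16-1* were miR-140 (0.953), miR-144 (0.927) and miR-15a (0.907), with miR-451 at rank 6 (0.882), and miR-16 at rank 31 (0.718). All these values come from the same 14 samples scaled to the same means, and are given as a description.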

How the data were processed

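The authors deposited Cq values, on a log2 scale and not normalized between mice, for 768 wells per mouse of a pair of Exiqon panels. Whether plates had been calibrated and outlying wells removed by then is unknown here. Their second table, with fold changes and p-values of their own comparison, was used only to name wells. Every column of sample values was used.

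Cq values over 37 were treated as missing. After removal of miRNAs absent from at least 75% of mice, 388 of 389 stayed, and the mean Cq of these served as the scale of a mouse. In this mean alone, a missing value took its group's mean, or Cq 38 if the group had none; tests left it missing. Groups were compared in limma 3.58.1 (R 4.3.3), two-sided, and p-values were adjusted over all 388 miRNAs by Benjamini-Hochberg. Single differences within mice were compared by an exact permutation test, two-sided (SciPy 1.17.1, Python 3.11.15), whose smallest possible p with 8 against 6 mice is 0.000666, and adjusted over 15. Correlations used 100000 permutations. Intervals of differences are at 95% and assume normal errors. The p-values rest on differences between mice, and in limma the variance of a miRNA is drawn toward that of the others. Code was tested on simulated data. Plots were drawn with matplotlib 3.10.9, and sequences and positions were read from RefSeq tables of GRCm38.p6.

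The miRNAs named are all assays of the family, miR-451 and miR-23a, members of the blood cell and p53 lists that passed, and the 3 miRNAs most like miR-16 and most like miR-16-1*. Further list members that did not pass (miR-34a, miR-486, miR-486*, miR-342-3p, miR-146a and miR-150) were named after their values were seen. Members, lists and tests were chosen with earlier results of these data known. Alternatives were other scalings, Cq limits, treatments of missing values, filters, tests, a fit with the marker, and fits without 1 mouse each.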

Additional observations from a re-analysis of the deposited data

Results flagged for a closer look

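Of 52 groups of values examined (each assay and each within-mouse difference, in OS and in controls), 4 held a mouse whose distance from its nearest neighbour was a large part of the range of its group. Chance gives about 1 in 20 groups. OS replicate 10, the mouse with the lowest marker of haemolysis (1.05), stood out for miR-16 minus miR-16-1* (12.35, the highest of 8) and for miR-15b* minus miR-16-1* (3.67, the highest of 8). Control replicate 3 stood out for miR-15a minus miR-15b* (7.47, the highest of 6). Control replicate 4 stood out for miR-322 minus miR-322* (3.36, the lowest of 6).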

How the results depend on the processing

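Of 729 results computed under an alternative, 603 kept their direction and their side of the threshold, 74 kept the direction but no longer passed, 17 newly passed and 35 turned sign. The limits are 14 mice and assays near the Cq limit of 37, with measured values of up to 36.78 for miR-195 and 35.88 for miR-16-1*. A further limit is the marker, whose group means differed by -1.58 without passing (exact permutation p = 0.116). The mice left out for a marker below 3 or above 7, the covariate on other pairs and leaving out mice for those pairs were chosen after seeing the data. The causes of the changes were not tested. No paired analysis was possible because the labels do not tell which mice with OS and which controls came from the same litter.

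With 3 called members in the comparison as reported, 0 were called when scaled to 3 reference miRNAs (miR-191, miR-103 and miR-423-3p), 1 by the methods' t-test, 0 with the marker as covariate and 0 without the mice of extreme marker. In that order, miR-15a was -1.71, -1.66, -0.99 and -0.64 and miR-16-1* was -1.74, -1.68, -0.94 and -0.63, none of them called. miR-15b* was not called at -1.54 (the 3 references), -1.28 (covariate), -1.04 (without those mice) and -1.92 (unscaled). miR-16-1* was also not called with scaling to the median (-1.54), missing values at Cq 38 (-1.64), a Cq limit of 35 (-1.16) or a Cq limit of 40 (-1.65). Over all miRNAs, 25 were lower and 24 higher as reported, against 17 and 4 unscaled, 14 and 28 scaled to the median and 11 and 22 scaled to the 3 references. Of these references, miR-103 was itself lower in OS (-1.28, limma, adjusted p = 0.0295). miR-423-3p and miR-191 did not pass (1.03 and 0.42, limma, adjusted p = 0.108 and 0.498). The slope of miR-423-3p on the marker passed (-0.36, limma, adjusted p = 0.0282), and those of miR-103 and miR-191 did not.

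Leaving out 1 mouse at a time gave 0 to 4 called members, -1.86 to -1.44 for miR-15a, -1.25 to -0.87 for miR-15b, -1.64 to -1.32 for miR-15b* and -1.90 to -1.37 for miR-16-1*. It gave 0.31 to 0.71 for miR-15b minus miR-15b* and 0.66 to 1.13 for miR-16 minus miR-16-1*.

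Values that turned sign were all without a call. miR-15a* was 0.14 with the covariate and 0.14 without the mice of extreme marker. With the covariate, miR-15a minus miR-15b* was 0.29, miR-15a minus miR-16-1* -0.054, miR-15b* minus miR-16-1* -0.34, miR-16 minus miR-322 0.37 and miR-16 minus miR-497 0.61. The correlation with the marker was 0.153 unscaled and 0.145 with the 3 references for miR-322, and 0.116 and 0.113 for miR-497. Without 1 mouse, miR-15a minus miR-15b* ran from -0.31 to 0.10, miR-15a minus miR-16-1* from -0.19 to 0.14, miR-15b* minus miR-16-1* from -0.22 to 0.38, miR-16 minus miR-497 from -0.48 to 0.18, and miR-15b* relative to miR-451 from -0.59 to 0.16.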
